A study of Mus musculus with 8 samples.

Results

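The genes described here are the chemokines and chemokine receptors of mouse wound skin, other than the neutrophil-attracting CXC set. They were chosen by symbol: every gene of the deposited table whose symbol starts with Ccl, Ccr, Cxcl, Cxcr, Ackr, Xcl, Xcr, Cx3cl or Cx3cr and a number was taken, and Cxcl1, Cxcl2, Cxcl3, Cxcl5, Cxcr1 and Cxcr2 were left out. This gave 54 of the 18540 genes in the table, 34 ligands and 20 receptors, and each one's description in the table names a chemokine or a chemokine receptor. The rule used no measured value. Skin of the wounds was sequenced in 4 control samples, which received PBS, and in 4 samples of the Z1C2Z group. Z1C2Z is the form of the nanocomposite ZCZ (ZnO2 and CeO2 particles in the metal-organic framework ZIF-8) that carries more CeO2 for its ZnO2, made to release oxygen and remove reactive oxygen species. It was injected around the wound, at 100 μg/kg as stated for the wound experiments, and tissue for RNA came from mice treated for 15 days. Both groups share the full-thickness wound on the back. The study wounded C57BL and db/db mice (db/db mice lack a working leptin receptor and are diabetic), a pair of wounds on each mouse, and the sources used here do not say which strain, age or sex gave the sequenced skin or whether any samples share a mouse. The p-values below therefore measure the spread between these samples, which may be partly technical. The titles read con and shiyan, and their numbers (1, 2, 3 and 5, and 1, 2, 4 and 5) are kept here as control-1 to control-5 and Z1C2Z-1 to Z1C2Z-5. The titles do not name the formulation, and the methods say only that the mice received ZCZ. That shiyan stands for Z1C2Z was inferred from the same sample numbers in the study's heatmap.

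Chemokines are small secreted proteins that form gradients along which leukocytes move, and they are named CC, CXC, C and CX3C by the spacing of their first cysteines. Their receptors are G protein-coupled and are shared out among leukocyte classes, so that monocytes follow CCR2 ligands, regulatory and skin-homing T cells CCR4 ligands, and activated T cells CXCR3 ligands. Atypical receptors bind chemokines without G protein signaling and remove them from the tissue. In skin wounds, CC chemokines from keratinocytes, fibroblasts and macrophages bring in monocytes after the first neutrophils.

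The libraries held between 28856790 and 38974888 counts, and all levels are CPM, counts scaled to libraries of equal size by the TMM method, which compare samples but not genes of different length. Where a sentence gives a level in each sample, the controls stand in the order of their numbers (1, 2, 3 and 5), as do the Z1C2Z samples (1, 2, 4 and 5). No 2 libraries agreed within sampling noise. On the first principal component of log2 CPM, Z1C2Z-5 (-0.291) lay nearest to the control samples (-62.9 to -12.2) and Z1C2Z-2 (65.7) and Z1C2Z-4 (67.7) lay farthest. Markers fitted the label of skin, with summed CPM of epidermal keratinocyte markers between 11185 and 17281 in all 8 samples, and no list held a marker at 0 in all samples. Marker levels of some cell types differed between the groups. All 6 hair follicle markers were higher at an edgeR adjusted p under 0.05 (sum 409 to 2105 CPM in control, 2592 to 8984 in Z1C2Z). The skeletal muscle sum was lower without overlap (2547 to 4439 against 1897 to 2405, with Acta1 and Myh1 past the test). Among 5 fibroblast markers, Dcn and Lum were lower by the same test. The part of these differences in the results below was not tested.

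Few of these genes passed the test. A gene was called where its adjusted p was under 0.05 and its log2 fold change over 1 in size (edgeR's quasi-likelihood test, Benjamini-Hochberg adjustment over all 15147 genes tested). By this rule 1 member, Ackr3, fell and 1, Ccr4, rose. Of the 54 members 45 were tested, 28 ligands and 17 receptors, and 9 lay under the low-count filter. Each single call makes 2.22% of the 45, where 1.25% of all genes tested were called lower and 2.15% higher. The same 2 genes passed without the fold threshold, where 3.85% of all genes were lower and 4.28% higher. Without adjustment, 8 members were lower and 7 higher at p under 0.05 in the same edgeR test (17.8% and 15.6%), against 15.2% and 12.8% of all genes. All Z1C2Z samples lay under all control samples for 2 members (Ackr3 and Ccr1, 4.44%), and 8.82% of all genes had this order. They lay over all control samples for another 2 (Ccr4 and Xcr1, 4.44%), against 8.45% of all genes. Both kinds of order were thus less frequent in this set than in the table as a whole, a difference that was not tested.

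Fold changes under and over 0 were spread unevenly over the roles. The median log2 fold change of the 45 tested members was -0.23, against 0.01 over all genes tested. Of the members 27 (60%) were under 0 and 18 (40%) over it, where 48.9% of all genes lay under 0. Among ligands 19 were under 0 and 9 over it (median -0.29), while receptors were split 8 against 9 (median 0.21). The 11 tested ligands of CCR2, of CCR3 and of a further role (Ccl3, Ccl4, Ccl5, Ccl6 and Ccl9, the other inflammatory CC ligands) all had a log2 fold change under 0, with medians of -1.78, -1.62 and -0.60, yet none of the 11 passed edgeR's test. At an unadjusted p under 0.05 in edgeR there were 5 of them, where 15.2% of all genes were lower by that rule. DESeq2 passed 3 (Ccl2, Ccl7 and Ccl8), where it passed 10.2% of all genes as lower. Control-1 held the highest value of Ccl2, Ccl6, Ccl7, Ccl8, Ccl9, Ccl11, Ccl12 and Ccl24. With control-1 and control-5 left out together, chosen after seeing the data, the log2 fold changes of these, Ccl12 aside, lay between -0.53 and -0.0079. In bulk tissue, fewer cells of a type and less RNA per cell cannot be told apart.

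**Figure D1:**
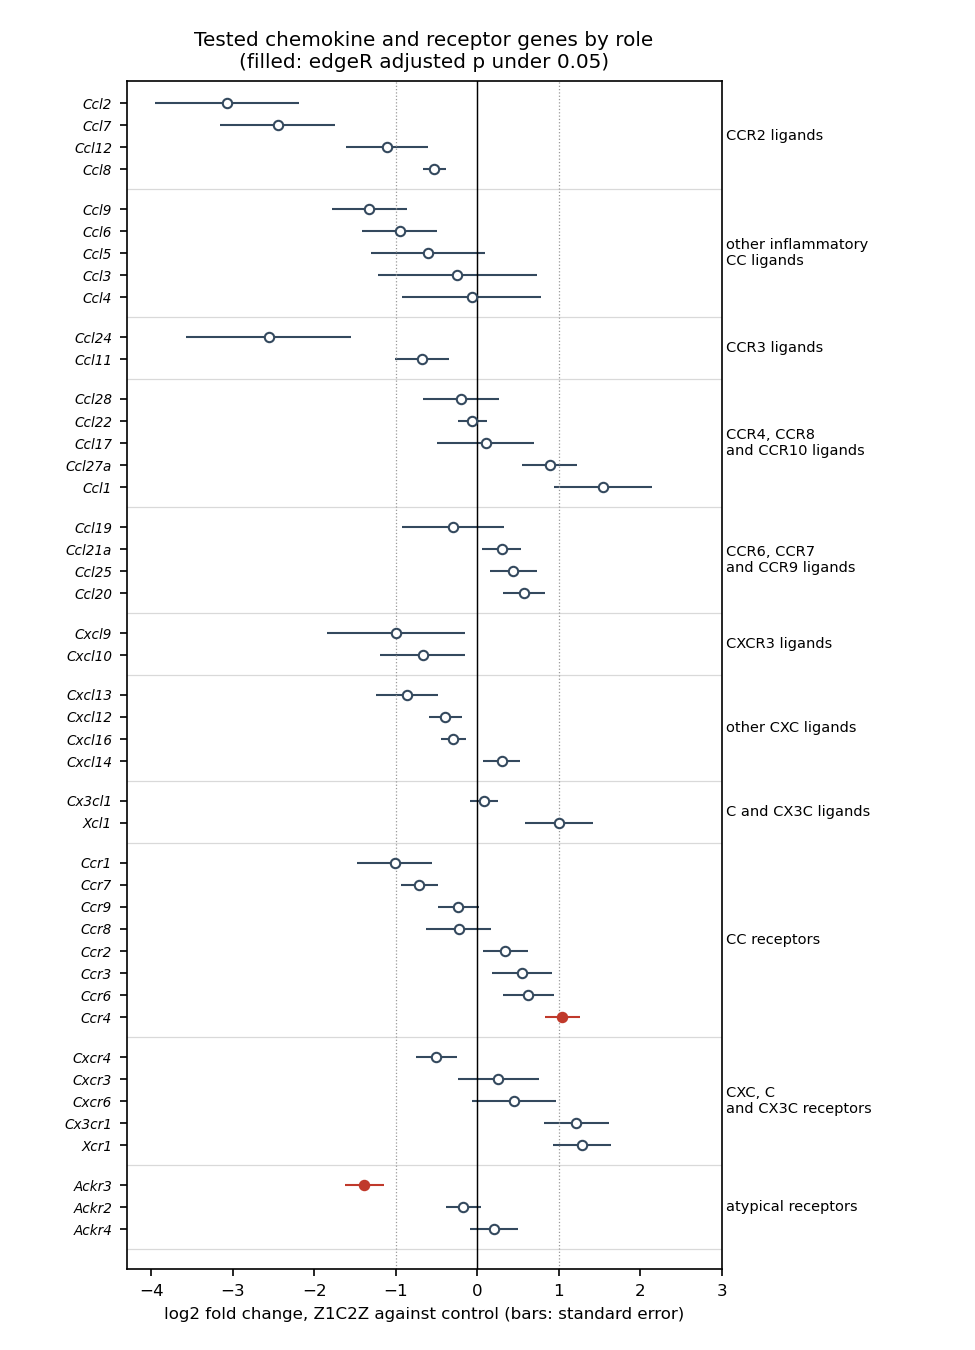
Log2 fold change of 44 tested members (x axis, Z1C2Z against control, 4 samples a group, bars of 1 standard error), grouped by role, with filled points for an edgeR adjusted p under 0.05. Ackr3 (-1.38) and Ccr4 (1.05) are the only filled points, and the first 3 roles of ligands at the top lie at or left of 0.

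Ackr3 (Entrez 12778), the atypical receptor that takes up CXCL12 and CXCL11, fell in the Z1C2Z group. Ackr3 was at 107, 88.5, 97.8 and 181 CPM in the controls and at 52.7, 40.6, 35.9 and 52.8 CPM in the Z1C2Z samples. The highest treated sample lay well under the lowest control sample, and control-5 stood over the other controls. Its mean went from 119 ± 42.4 to 45.5 ± 8.60 CPM (SD, n = 4 each), 2.61-fold lower, and the log2 fold change was -1.38 ± 0.24 (SE here and below, edgeR adjusted p = 0.0299). A two-sided exact permutation test, with 70 ways to divide the samples, gave p = 0.0286, the smallest it can give. Summed endothelial markers overlapped between the groups, at 246 (control-1) to 683 CPM (control-5) in control and 202 to 405 CPM in Z1C2Z. All 4 endothelial markers were lower in mean in Z1C2Z, and none passed edgeR's test. The part of endothelial cells in the Ackr3 values was not tested. The call was lost when control-5 was left out (edgeR adjusted p = 0.0650), and likewise Z1C2Z-1 (0.0661), Z1C2Z-2 (0.0888) or Z1C2Z-4 (0.0876), fits in which no gene of the table passed, and the log2 fold change then lay between -1.45 and -1.10.

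Ccr4 (Entrez 12773), the receptor for CCL17 and CCL22 on skin-homing and regulatory T cells, rose. Ccr4 was at 1.95, 1.64, 2.64 and 1.55 CPM in the controls and at 3.61, 3.86, 4.77 and 3.85 CPM in the Z1C2Z samples. These are low levels, 55 to 96 counts in a control sample and 128 to 190 in a Z1C2Z sample, but the groups did not overlap. The mean rose from 1.95 ± 0.497 to 4.02 ± 0.512 CPM (SD, n = 4 each), 2.07-fold, and the log2 fold change was 1.05 ± 0.22 (edgeR adjusted p = 0.0319, exact permutation p = 0.0286). Summed T cell markers overlapped between the groups, at 27.1 to 47.2 CPM in control and 27.4 to 45.5 in Z1C2Z. Control-3 alone gave the upper control value, over 29.8 CPM in control-5. Of the 6 markers 5 were higher and 1 lower in mean in Z1C2Z, and none passed edgeR's test. The part of T cell number in the Ccr4 values was not tested. Without control-2 the edgeR adjusted p of Ccr4 was 0.0713 and without control-5 0.0865, and leaving out Z1C2Z-1 (0.0672), Z1C2Z-2 (0.0925) or Z1C2Z-4 (0.102) also ended the call, with a log2 fold change between 0.95 and 1.11. Of all genes, 0.805% passed without control-2, and no gene of the table passed in the other fits named here.

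The stretch before the start site is shown for these 2 genes, since they are the only members that passed the test. The sequences are the 250 bases upstream of the start in RefSeq's annotation of GRCm38.p6, 5′ to 3′ on the gene's strand, with capitals for a match to one of 4 searched motifs. These were kappa B (GGGNNNNNCC), AP-1 (TGANTCA), STAT (TTCNNNGAA) and the hypoxia response core (ACGTG), on both strands.
Ackr3, chr1:90203730-90203979, plus strand: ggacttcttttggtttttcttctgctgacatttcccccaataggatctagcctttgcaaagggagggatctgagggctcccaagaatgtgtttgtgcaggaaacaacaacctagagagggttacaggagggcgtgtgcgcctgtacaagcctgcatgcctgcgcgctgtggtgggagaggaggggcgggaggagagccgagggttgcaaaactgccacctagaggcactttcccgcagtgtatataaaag
Ccr4, chr9:114496545-114496794, minus strand: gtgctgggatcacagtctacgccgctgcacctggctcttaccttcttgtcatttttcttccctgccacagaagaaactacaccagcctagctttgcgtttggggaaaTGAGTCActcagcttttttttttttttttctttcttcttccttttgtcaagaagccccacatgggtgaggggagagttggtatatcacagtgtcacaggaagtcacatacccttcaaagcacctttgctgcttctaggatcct
The Ackr3 stretch held none of the 4 motifs. The Ccr4 stretch held 1, an AP-1 match that begins 143 bases before the start and overlaps no other match. AP-1 matches were present in 6.87% of 27025 promoters of this length, kappa B in 45.4%, STAT in 7.18% and the hypoxia core in 16.6%. Of the 54 members 41 had a promoter in the RefSeq table, and 4 of these held AP-1, 20 kappa B, 4 STAT and 4 the hypoxia core. A match is a run of letters and not a measured binding site.

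The CCR2 ligands, which draw monocytes out of the blood, included Ccl2, the member with the most negative log2 fold change of the 45 tested, and none of the 4 passed the test. Ccl2 (Entrez 20296) was at 211, 8.63, 15.7 and 71.0 CPM in the controls and at 10.8, 7.95, 6.88 and 10.7 CPM in the Z1C2Z samples. The Z1C2Z samples were low and close together, but control-2 lay among them, and control-1 was 2.97 times the next control. The log2 fold change of Ccl2 was -3.07 ± 0.88 with an edgeR adjusted p of 0.0626. Ccl7 (Entrez 20306), a further monocyte attractant, was at 280, 23.8, 34.3 and 103 CPM in the controls and at 23.6, 16.9, 14.1 and 26.1 CPM in the Z1C2Z samples. Here control-1 and control-5 were again high, control-2 lay within the range of the Z1C2Z samples, and the log2 fold change was -2.45 ± 0.71 (edgeR adjusted p = 0.0635). Without control-1 the log2 fold changes were -1.82 and -1.42 (edgeR adjusted p = 0.0934 and 0.0851), and without control-5 the adjusted p was 0.131 and 0.134. Both passed when control-3 was left out (edgeR adjusted p = 0.0450 and 0.0470), and the 15 alternatives gave Ccl2 adjusted p-values from 0.00926 to 0.410 and Ccl7 from 0.0177 to 0.417.

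Ccl8 (Entrez 20307), the monocyte and lymphocyte attractant also bound by mouse CCR8, had a smaller fold change and a narrower spread, and did not pass the test. Ccl8 was at 295, 208, 238 and 285 CPM in the controls and at 167, 160, 168 and 218 CPM in the Z1C2Z samples. Only Z1C2Z-5 reached into the control range, above control-2. Its log2 fold change was -0.52 ± 0.14 (edgeR adjusted p = 0.0549), and without Z1C2Z-5 it was -0.64 with an adjusted p of 0.0251 (0.00708 to 0.397 over 15 alternatives). Ccl12, the fourth CCR2 ligand, ranged from 5.44 to 30.1 CPM in control and from 5.54 to 6.63 CPM in Z1C2Z, with its highest value in control-1 (log2 fold change -1.10, edgeR adjusted p = 0.188). Summed macrophage and monocyte markers overlapped between the groups, at 2602 to 3199 CPM in control and 1550 to 2666 CPM in Z1C2Z, with all 11 lower in mean and none past edgeR's test (4 at an unadjusted p under 0.05, and Cd14 alone in DESeq2).

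**Figure D2:**
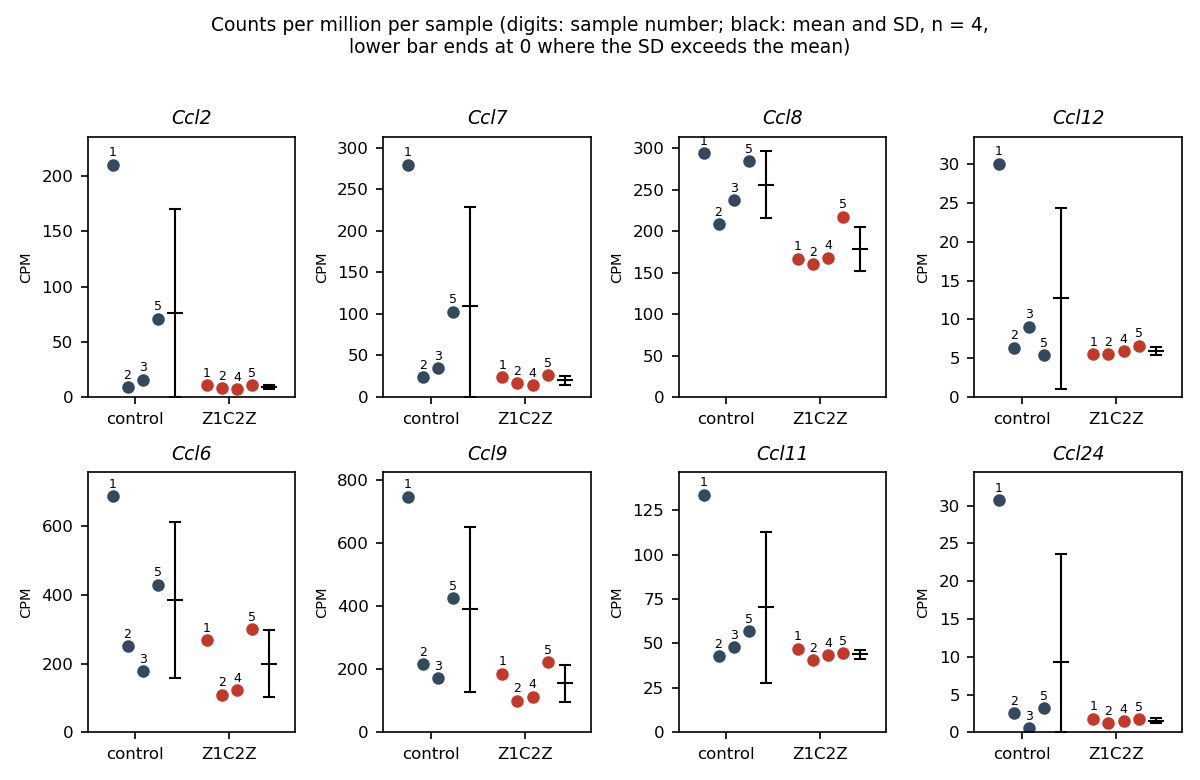
CPM (y axis, linear from 0) of 8 inflammatory CC ligands in each control (dark) and Z1C2Z (red) sample, with the sample number beside each point and the mean and SD in black. Control-1 is the highest sample in all 8 panels, in Ccl8 Z1C2Z-5 alone reaches the control range, and Ccl2 ranges from 8.63 to 211 CPM within the control group. Ccl3, Ccl4 and Ccl5 of the same roles are not plotted here, and were highest in control-5, Z1C2Z-5 and control-3.

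The other inflammatory CC ligands, which act on monocytes, macrophages and T cells, were unequal among the Z1C2Z samples. Ccl9 (Entrez 20308), a rodent CCR1 ligand of myeloid cells, was at 748, 216, 172 and 425 CPM in the controls and at 187, 101, 114 and 222 CPM in the Z1C2Z samples. Ccl6 (Entrez 20305), a related rodent ligand of CCR1, was at 687, 250, 178 and 430 CPM in the controls and at 268, 110, 122 and 300 CPM in the Z1C2Z samples. In both genes control-1 and control-5 were high, Z1C2Z-2 and Z1C2Z-4 were low, and Z1C2Z-1 and Z1C2Z-5 lay inside the control range. The log2 fold changes were -1.32 ± 0.46 for Ccl9 (edgeR adjusted p = 0.102) and -0.95 ± 0.46 for Ccl6 (edgeR adjusted p = 0.216).

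The other 3 ligands of this role were Ccl3, Ccl4 and Ccl5, whose samples are named after their values were seen. Ccl3, an early macrophage product that binds CCR1, reached 19.5 CPM in control-5, 14.9 CPM in Z1C2Z-5 and 11.6 CPM in Z1C2Z-1, but 1.63 CPM in Z1C2Z-2 and 0.251 CPM (10 counts) in Z1C2Z-4. The highest and lowest Z1C2Z samples thus differed 59.4-fold, the widest spread of any tested member within a group. Ccl4, a closely related macrophage product, had the same pair of low samples, with 0.959 CPM in Z1C2Z-2 and 0.251 CPM in Z1C2Z-4 and a 26.4-fold range. With such spreads the log2 fold changes of -0.24 ± 0.98 and -0.07 ± 0.85 do not resolve a difference in either direction (edgeR adjusted p = 0.894 and 0.966).

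CCR3 ligands attract eosinophils. Ccl11 (Entrez 20292), eotaxin, was at 134, 42.9, 47.8 and 56.8 CPM in the controls and at 47.0, 40.6, 43.3 and 44.6 CPM in the Z1C2Z samples. Ccl24 (Entrez 56221), eotaxin-2 of macrophages, was at 30.7, 2.55, 0.578 and 3.24 CPM in the controls and at 1.80, 1.19, 1.51 and 1.75 CPM in the Z1C2Z samples. Control-1 alone held the high value of each, 9.49 times the next control for Ccl24, and the other 3 controls lay around the Z1C2Z samples. The log2 fold changes were -0.68 ± 0.33 (edgeR adjusted p = 0.213) and -2.56 ± 1.01 (edgeR adjusted p = 0.138), and without control-1 they were -0.17 and -0.45 (edgeR adjusted p = 0.327 and 0.563). Ccl26 had 1 count in 1 library and was not tested.

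Ligands of CCR4, CCR8 and CCR10 guide T cells into skin, and 3 of the 5 tested had a fold change over 0. Ccl27a (Entrez 20301), a CCR10 ligand of keratinocytes, was at 18.9, 7.55, 9.89 and 13.7 CPM in the controls and at 14.2, 22.6, 36.7 and 19.0 CPM in the Z1C2Z samples. Of the Z1C2Z samples, Z1C2Z-1 alone lay under the highest control. The log2 fold change of Ccl27a was 0.89 ± 0.34 (edgeR adjusted p = 0.128), and its near-identical copy Ccl27b, under the filter with 4 to 23 counts, may share its reads. Ccl1 (Entrez 20290), the CCR8 ligand, was at 0.497, 0.111, 0.358 and 0.197 CPM in the controls and at 0.338, 1.19, 1.41 and 0.416 CPM in the Z1C2Z samples. Only Z1C2Z-2 and Z1C2Z-4 lay over all controls, all on 4 to 56 counts, and its log2 fold change of 1.55 ± 0.60, the highest of the set, did not pass (edgeR adjusted p = 0.131).

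Ccl22 (Entrez 20299), a CCR4 ligand of dendritic cells and macrophages, overlapped almost wholly between the groups. Ccl22 was at 12.9, 15.3, 13.0 and 9.41 CPM in the controls and at 9.87, 11.0, 13.0 and 14.6 CPM in the Z1C2Z samples. Each group had its lowest value under 10 CPM, and the log2 fold change was -0.06 ± 0.18 (edgeR adjusted p = 0.849). The other CCR4 ligand, Ccl17, ranged from 0.165 to 1.71 CPM in control and from 0.527 to 1.06 CPM in Z1C2Z (log2 fold change 0.11, edgeR adjusted p = 0.925). The receptor Ccr4 thus rose while neither of its ligands passed the test, and the difference between receptor and ligands was not tested. Ccl28, a CCR10 and CCR3 ligand of mucosal epithelium, had 11 to 36 counts a sample (log2 fold change -0.20, edgeR adjusted p = 0.812).

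Among ligands of CCR6, CCR7 and CCR9, which act on T cells and dendritic cells, 3 of 4 tested had a fold change over 0. Ccl20 (Entrez 20297), the CCR6 ligand of keratinocytes, was at 2.84, 3.89, 2.73 and 2.17 CPM in the controls and at 2.82, 4.12, 5.30 and 5.16 CPM in the Z1C2Z samples. Ccl21a (Entrez 18829), the CCR7 ligand of lymphatic vessels, was at 55.7, 34.3, 61.1 and 52.0 CPM in the controls and at 42.8, 70.5, 85.5 and 51.0 CPM in the Z1C2Z samples. Z1C2Z-1 lay inside the control range of both genes and Z1C2Z-4 was the highest sample of both. The log2 fold changes of 0.58 ± 0.26 and 0.30 ± 0.24 did not pass (edgeR adjusted p = 0.177 and 0.443), and reads of Ccl21a may be shared with its near-identical copies Ccl21b (0 to 8 counts) and Ccl21d (0 to 2 counts). Summed lymphatic endothelial markers were 62.4 to 101 CPM in control and 57.8 to 69.8 CPM in Z1C2Z. Ccl25, a CCR9 ligand, and Ccl19, another CCR7 ligand with copies in the mouse genome, had log2 fold changes of 0.45 and -0.30 on 39 to 116 and 3 to 25 counts.

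The interferon-induced CXCR3 ligands, which attract activated T cells, were set apart by 1 control library. Cxcl9 (Entrez 17329) was at 10.9, 11.3, 124 and 9.38 CPM in the controls and at 8.94, 22.5, 28.6 and 18.0 CPM in the Z1C2Z samples. Cxcl10 (Entrez 15945) was at 6.32, 5.05, 26.3 and 6.53 CPM in the controls and at 4.57, 6.94, 9.69 and 6.63 CPM in the Z1C2Z samples. Control-3 was 11.0 times the next control for Cxcl9 and 4.03 times for Cxcl10, and 3 of the 4 Z1C2Z samples lay over the other 3 controls in both genes. With control-3 the log2 fold changes were -0.996 ± 0.85 and -0.67 ± 0.52, and without it they were 0.89 and 0.23, so the sign rested on this library (edgeR adjusted p = 0.471 and 0.430 with it, 0.147 and 0.618 without it).

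Control-3 was also the highest sample for Ccl5, for the receptor Cxcr3 itself and for Ccl19, Cxcl16 and Ccr9, genes named after their values were seen. Ccl5, a T cell product that binds CCR1, was at 12.1 CPM in control-3 and at 1.67 to 2.14 CPM in the other controls. Cxcr3 was at 2.48 CPM in control-3 and at 0.320 to 0.999 CPM in the other controls, against 1.11 to 1.53 CPM in Z1C2Z. The T cell marker sum was highest in control-3 as well, at 47.2 CPM against 27.1 to 29.8 CPM in the other controls, and its part in these values was not tested.

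**Figure D3:**
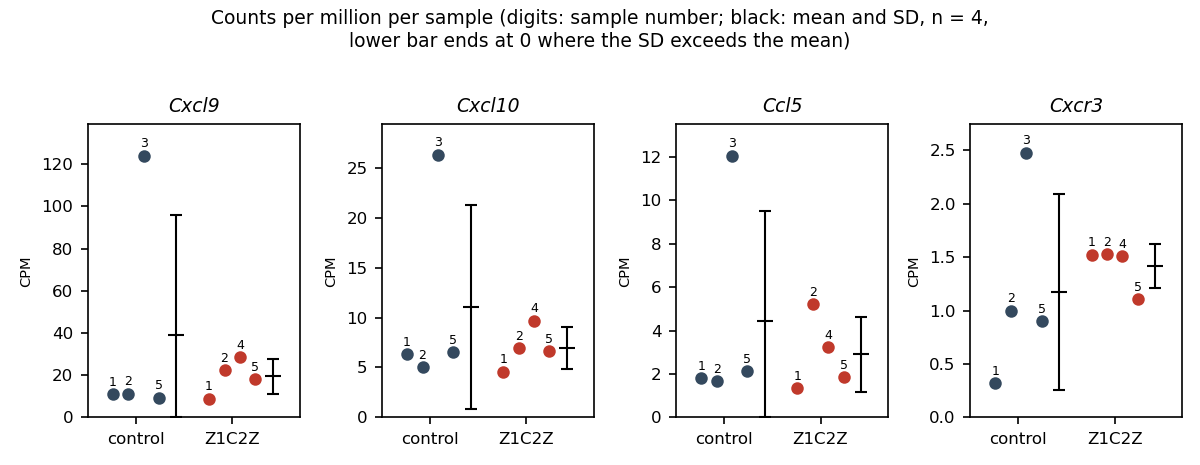
CPM (y axis, linear from 0) of Cxcl9, Cxcl10, Ccl5 and Cxcr3 in each control (dark) and Z1C2Z (red) sample, with sample numbers and the mean and SD in black. Control-3 is the highest of all 8 samples in each panel, at 124 CPM for Cxcl9 where the other controls lie between 9.38 and 11.3 CPM.

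The homeostatic CXC ligands overlapped between the groups. Cxcl12 (Entrez 20315), the fibroblast product that holds CXCR4-bearing cells and is also bound by ACKR3, was at 193, 318, 261 and 407 CPM in the controls and at 248, 228, 199 and 225 CPM in the Z1C2Z samples. Cxcl14 (Entrez 57266), an abundant keratinocyte chemokine, was at 71.7, 89.9, 52.7 and 115 CPM in the controls and at 91.1, 115, 118 and 81.8 CPM in the Z1C2Z samples. For Cxcl12 all Z1C2Z samples lay inside the control range, while for Cxcl14 Z1C2Z-4 alone lay above control-5. The log2 fold changes were -0.39 ± 0.20 (edgeR adjusted p = 0.241) and 0.30 ± 0.23 (edgeR adjusted p = 0.416). Cxcl13, a B cell attractant, ranged from 4.38 to 11.8 CPM in control and 2.67 to 6.74 CPM in Z1C2Z (log2 fold change -0.86, edgeR adjusted p = 0.173), and Cxcl16, the CXCR6 ligand, from 44.5 to 65.6 and from 38.4 to 47.5 CPM (-0.29, edgeR adjusted p = 0.233).

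Receptor and ligand were both higher in mean for the XC pair. Xcr1 (Entrez 23832), the receptor of cross-presenting dendritic cells, was at 1.24, 0.416, 1.10 and 0.789 CPM in the controls and at 1.64, 2.56, 2.74 and 1.72 CPM in the Z1C2Z samples. The groups did not overlap, on 15 to 40 counts against 58 to 109 counts. The log2 fold change of Xcr1 was 1.29 ± 0.36, with an edgeR adjusted p of 0.0566 and an exact permutation p of 0.0286. Its ligand Xcl1 (Entrez 16963), made by natural killer and CD8 T cells, was at 1.21, 0.250, 0.716 and 0.676 CPM in the controls and at 1.13, 1.89, 1.36 and 1.30 CPM in the Z1C2Z samples. Z1C2Z-1 alone fell below control-1, and the log2 fold change of 1.01 ± 0.42 did not pass (edgeR adjusted p = 0.155). Dendritic and Langerhans cell markers summed to 51.5 to 89.2 CPM in control and to 53.8 to 63.6 CPM in Z1C2Z.

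Cx3cr1 (Entrez 13051), the fractalkine receptor of patrolling monocytes and resident macrophages, was at 1.74, 6.52, 3.94 and 3.58 CPM in the controls and at 12.2, 9.38, 4.70 and 10.6 CPM in the Z1C2Z samples. Z1C2Z-4 alone overlapped the controls, through control-2, and the log2 fold change was 1.22 ± 0.40 (edgeR adjusted p = 0.0865). Its ligand Cx3cl1 (Entrez 20312) was at 6.00, 7.24, 8.24 and 9.58 CPM in the controls and at 7.08, 8.01, 9.77 and 8.04 CPM in the Z1C2Z samples, and its log2 fold change was 0.08 ± 0.17 (edgeR adjusted p = 0.787). The ligand thus had almost the same range in both groups.

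Of the CC receptors, Ccr1 shared with Ackr3 the order without overlap. Ccr1 (Entrez 12768), a receptor of monocytes, macrophages and neutrophils, was at 76.6, 64.7, 61.7 and 64.6 CPM in the controls and at 46.2, 13.5, 13.0 and 60.0 CPM in the Z1C2Z samples. The controls were close together, whereas the Z1C2Z samples split into a pair near 13 CPM and Z1C2Z-5 just under the lowest control. Because of this spread the log2 fold change of -1.01 ± 0.46 had an edgeR adjusted p of 0.191, beside an exact permutation p of 0.0286. Scaled by library size alone, Z1C2Z-5 lay over control-3 and the groups overlapped. Z1C2Z-2 and Z1C2Z-4, the low pair, had the lowest macrophage and monocyte marker sums, 1944 CPM in Z1C2Z-2 and 1550 CPM in Z1C2Z-4 against 2606 and 2666 CPM in the other Z1C2Z samples, and the lowest neutrophil marker sums, 384 and 160 CPM against 532 and 616 CPM. The part of these cells in the values was not tested.

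Ccr2 (Entrez 12772), the receptor of inflammatory monocytes for CCL2 and CCL7, had a fold change over 0 where those ligands lay under 0, a contrast that was not tested. Ccr2 was at 103, 130, 119 and 59.2 CPM in the controls and at 140, 128, 82.1 and 173 CPM in the Z1C2Z samples. Control-5 was the lowest sample and Z1C2Z-5 the highest, the ranges overlapped, and the log2 fold change was 0.35 ± 0.27 (edgeR adjusted p = 0.434). A further 5 tested CC receptors were Ccr3 of eosinophils, Ccr6 of T and B cells, Ccr7 of migrating dendritic cells and T cells, Ccr8 of T cells and Ccr9 of gut-homing T cells. None passed edgeR's test, with log2 fold changes between -0.71 and 0.63. Nearest was Ccr7, the only one at an unadjusted p under 0.05 and the only one past DESeq2's adjusted p, at 5.22 to 7.97 CPM in control and 3.33 to 5.86 CPM in Z1C2Z (log2 fold change -0.71 ± 0.23, edgeR adjusted p = 0.0810).

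**Figure D4:**
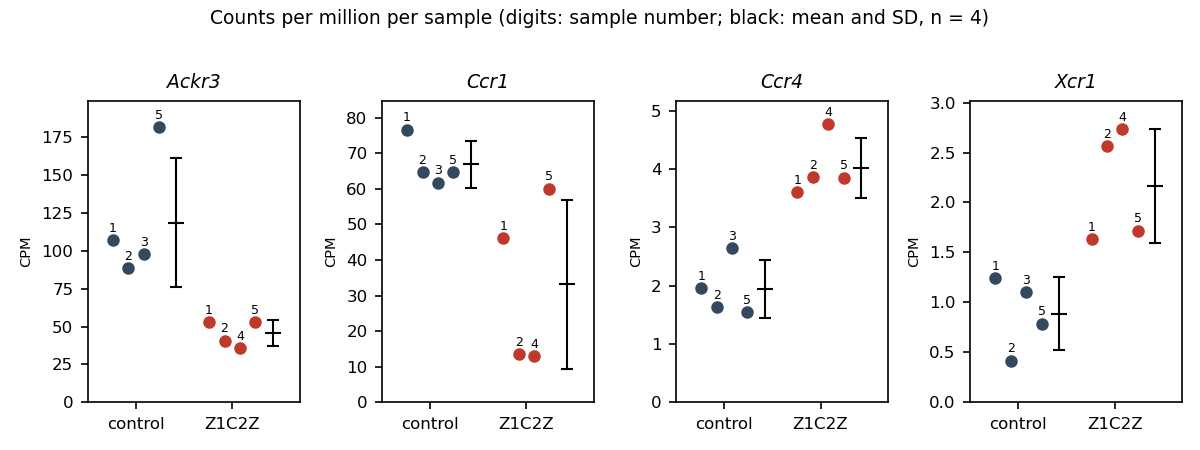
CPM (y axis, linear from 0) of the 4 members whose groups do not overlap, in each control (dark) and Z1C2Z (red) sample, with sample numbers and the mean and SD in black. Ackr3 and Ccr1 lie lower and Ccr4 and Xcr1 higher in every Z1C2Z sample, and for Ccr1 the Z1C2Z samples range from 13.0 to 60.0 CPM.

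Cxcr4 (Entrez 12767), the signaling receptor for CXCL12 on leukocytes and stem cells, was at 18.8, 38.2, 29.8 and 46.1 CPM in the controls and at 21.6, 26.2, 18.5 and 27.9 CPM in the Z1C2Z samples. Control-1 was as low as the Z1C2Z samples, and the log2 fold change of -0.50 ± 0.25 did not pass (edgeR adjusted p = 0.231). Of the 3 genes of this axis, Ackr3, Cxcl12 and Cxcr4, each was highest in control-5, and Ackr3 alone passed the test. Cxcr6, of tissue-resident T cells, ranged from 2.78 to 10.7 CPM in control and from 2.86 to 12.4 CPM in Z1C2Z (log2 fold change 0.46, edgeR adjusted p = 0.593). The log2 fold change of Cxcr3 was 0.26 (edgeR adjusted p = 0.768).

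The table held 3 atypical receptors, with no gene under the symbol Ackr1. Beside Ackr3 these were Ackr4 and Ackr2, and neither passed the test. Ackr4 (Entrez 252837), which scavenges CCL19, CCL21 and CCL25, was at 30.3, 13.0, 11.8 and 17.5 CPM in the controls and at 17.1, 20.5, 28.1 and 17.9 CPM in the Z1C2Z samples. All Z1C2Z samples lay inside the control range (log2 fold change 0.21 ± 0.30, edgeR adjusted p = 0.684). Ackr2, the scavenger of inflammatory CC chemokines on lymphatic vessels, ranged from 4.08 to 6.18 CPM in control and from 2.93 to 4.82 CPM in Z1C2Z (log2 fold change -0.17 ± 0.21, edgeR adjusted p = 0.637).

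The 9 members under the filter were the ligands Ccl21b, Ccl21d, Ccl26, Ccl27b, Cxcl15 and Cxcl17 and the receptors Ccr10, Ccr1l1 and Cxcr5. No library held more than 23 counts of any of them, that of Ccl27b in control-1. Ccr10, the receptor for CCL27 and CCL28, had 0 to 2 counts in a control sample and 1 to 7 in a Z1C2Z sample, and Cxcr5, the receptor for CXCL13 on B cells, had 2 to 10 and 1 to 6. The main fit did not test these genes. Without the low-count filter all 54 members were tested in edgeR, and only Ackr3 and Ccr4 had an adjusted p under 0.05. Counts this low resolve little.

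Read by sample, the set was dominated by a few libraries. Control-1 held the highest value of 14 of the 45 tested members, among them Ccl2, Ccl7, Ccl8, Ccl12, Ccl6, Ccl9, Ccl11 and Ccl24, and Z1C2Z-4 the highest value of 11, among them Ccl1, Ccl20, Ccl21a, Ccl27a, Ccr4 and Xcr1. Z1C2Z-4 also held the lowest value of 9 members, among them Ackr3, Ccl2, Ccl3, Ccl4, Ccl7 and Ccr1. The summed CPM of all 54 members was 3306, 1738, 1779 and 2562 in the controls and 1583, 1308, 1283 and 1775 in the Z1C2Z samples. Z1C2Z-5 lay within the control range of this sum, just over control-2, and the other 3 Z1C2Z samples lay below it. The receptors' part of it was even in the controls, at 418 to 457 CPM, and ranged from 239 to 434 CPM in Z1C2Z. Between the lowest and highest control the median member differed 2.56-fold, and 5 members differed over 10-fold (Ccl2, Ccl7, Ccl24, Cxcl9 and, named after its values were seen, Ccl17). Within Z1C2Z the median was 2.00-fold and 2 members passed that mark, Ccl3 and Ccl4.

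**Figure D5:**
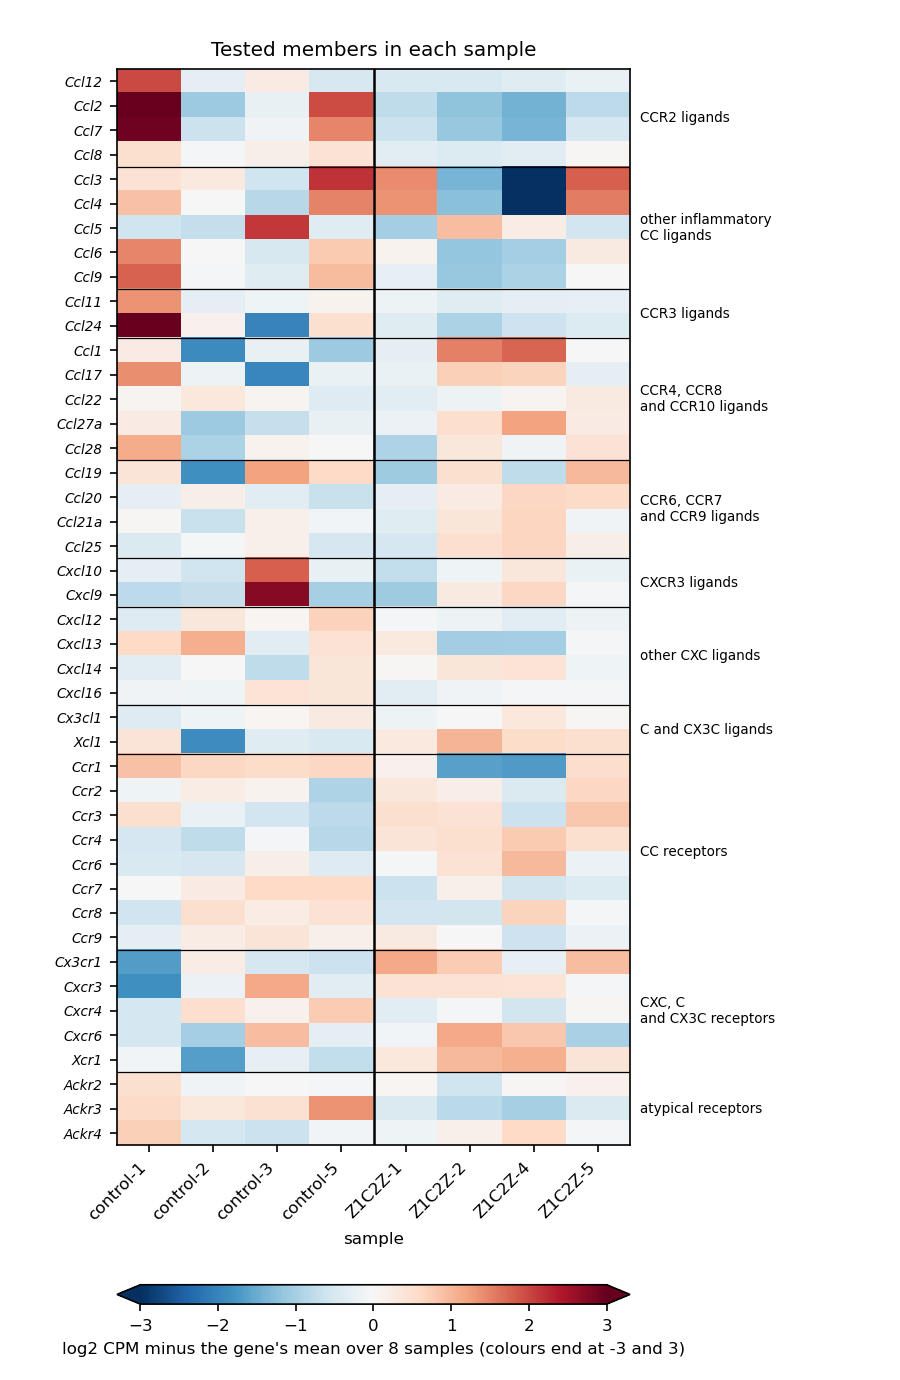
Log2 CPM of 44 tested members (rows, by role) in each sample (columns, controls left of the line), as the difference from the gene's mean over the 8 samples, on a colour scale that ends at -3 and 3. The strongest red stands in control-1 for Ccl2, Ccl7 and Ccl24 and in control-3 for Cxcl9, and the strongest blue in Z1C2Z-4 for Ccl3 and Ccl4.

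Other genes of the pathway were counted as whole lists, whichever way each gene moved. The lists were set with earlier results of these data known. The deposited KEGG annotation puts 50 of the 54 members and 130 further genes in the chemokine signaling pathway. Of these 130, 122 were tested, 91 with a log2 fold change under 0 and 31 over it (median -0.16), where 48.9% of all genes lay under 0, and 9 (7.38%) passed at an edgeR adjusted p under 0.05 as lower and 2 (1.64%) as higher, all with an absolute log2 fold change under 1. Of all genes, 3.85% were lower and 4.28% higher by that rule, and the difference in share was not tested. Among the 9 were Adcy2, Crk, Jak2, Nfkb1, Rap1b, Rela, Shc2 and Stat3. Jak2, a tyrosine kinase of cytokine receptors, fell from 182 ± 31.8 to 95.4 ± 23.0 CPM (SD, n = 4, log2 fold change -0.93 ± 0.18, edgeR adjusted p = 0.0303), and Stat3, a transcription factor it activates, from 277 ± 36.0 to 162 ± 36.0 CPM (-0.77 ± 0.17, edgeR adjusted p = 0.0337). Nfkb1 and Rela, the NF-kappa B subunits p50 and p65, had log2 fold changes of -0.57 and -0.46. The 2 that rose were Pik3cb, a catalytic subunit of phosphoinositide 3-kinase, with a log2 fold change of 0.59, and the cell polarity gene Pard3 at 0.35.

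A further 3 lists bore on the handling of chemokines in tissue. Among 22 genes of receptor signaling and desensitization (Gi alpha subunits, arrestins, receptor kinases, RGS proteins and the leukocyte motility genes), 17 had a log2 fold change under 0 and 5 over it (median -0.23), and none passed, with 5 lower and 1 higher at an unadjusted p under 0.05 in edgeR and 3 past the adjusted p in DESeq2 (Rgs1, Rgs16 and Pik3r5). Of all genes, 15.2% were lower and 12.8% higher at that unadjusted p, and 18.1% passed in DESeq2. Of 11 enzymes and carriers that cut, sulfate or hold chemokines, 8 were under 0 (median -0.40), and Mmp2, a gelatinase that trims CCL7 and CXCL12, passed as lower at 1071 ± 224 against 622 ± 123 CPM (SD, n = 4, edgeR adjusted p = 0.0423) with overlapping groups. Of 9 chemokine system genes outside the symbol rule, 8 were under 0 (median -0.29), and Gpr35, a receptor once proposed for CXCL17, fell from 37.3 ± 14.4 to 15.7 ± 4.96 CPM (SD, n = 4, log2 fold change -1.25 ± 0.31, edgeR adjusted p = 0.0424). The left-out neutrophil-attracting CXC genes were the set most like this one. Of its 6 genes 5 were tested, all under 0 with a median of -1.47, and 2 were called lower (Cxcl1 and Cxcl5), against 1 of 45 here, a difference that was not tested. Of all genes tested, 48.9% lay under 0 and 1.25% were called lower.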

How the data were processed

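The authors deposited whole-number counts of reads per gene for 8 samples, without normalization, with Entrez identifiers, descriptions and KEGG terms. Aligner, counter, build, annotation and strand setting are not given in the sources used here, so reads of near-identical genes may have been split in an unknown way. The study's methods name a TIANGEN tissue kit for the RNA and the labels name Trizol, then rRNA depletion, random priming and dUTP marking. Depth was 28856790 to 38974888 counts a sample, with 0 columns unused and 0 rows that name no gene.

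Groups came from the sample titles. Counts were kept by filterByExpr (15147 of 18540 genes), scaled by TMM and tested with edgeR 4.0.16 (R 4.3.3, quasi-likelihood test, no covariates), with Benjamini-Hochberg adjustment over all genes tested. Standard errors came from the F statistic. Single genes also had an exact permutation test over 70 arrangements, on log2 CPM with a prior count of 2. On simulated counts for 15147 genes, 191 of 200 genes that had been given a log2 fold change of 2 were recovered and 5 unchanged ones were called. The changed genes were drawn without those of lowest level, and their change was larger than that of Ackr3 or Ccr4. The recovery therefore does not speak for smaller changes or for members with few counts. Values in every sample are given for members past the adjusted p, members without overlap, the 2 most abundant of each role and the 5 with the largest fold change. Members and lists were chosen with earlier results of these data known. Alternatives were DESeq2 1.42.0, RLE factors, library size alone for overlap, no filter, 10 counts in every sample, a block and each sample left out. Of the genes that these rules select, 2 are counted but not reported here by name or value.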

Additional observations from a re-analysis of the deposited data

Results flagged for a closer look

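In 54 checks for a sample far from the other 3 of its group (27 members in each of 2 groups, by Dixon's ratio on log2 CPM), 3 values stood apart, in control-3 and Z1C2Z-5. Chance alone gives about 1 in 20, and 3 of 54 lies near that rate. Cxcl9 in control-3 was at 124 CPM where the other controls lay between 9.38 and 11.3 CPM. Cxcl10 in control-3 was at 26.3 CPM against 5.05 to 6.53 CPM. Both genes code for interferon-induced CXCR3 ligands, and both flags fall on the same library. Ccl8 in Z1C2Z-5 was at 218 CPM where the other Z1C2Z samples lay between 160 and 168 CPM.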

How the results depend on the processing

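Of 403 recomputed values for the 27 members with values in every sample, over 15 settings, 365 kept their sign and their side of the threshold, 12 crossed to an adjusted p under 0.05, 14 lost it and 12 changed sign. DESeq2 called 3 members lower and 3 higher (5 and 4 without the fold threshold: Ackr3, Ccl2, Ccl7, Ccl8 and Ccr7, and Ccl27a, Ccr4, Cx3cr1 and Xcr1), and these 9 are 20.5% of 44, where it passed 18.1% of all genes. Leaving out 1 sample gave 0 to 3 lower and 0 to 2 higher members, with and without the fold threshold, with the 3 (Ackr3, Ccl2 and Ccl7) reached without control-3. Leaving out Z1C2Z-2 and Z1C2Z-4, or control-1 and control-5, together, alternatives chosen after seeing the data, gave 0 and 0 members (4 and 9 at an unadjusted p under 0.05 in edgeR, 8.89% and 19.6%, against 12.9% and 24.3% of all genes), and the second moved the median to -0.0375. These settings leave 6 samples, and passed 0% and 0.0842% of all genes at an edgeR adjusted p under 0.05. With library size alone 1 member, Ackr3, was lower without overlap. The cause of the other changes was not tested.

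Sign changes were found for members that had not passed. Without control-3, Cxcl9 was at 0.89 and Cxcl10 at 0.23. Without Z1C2Z-2 and Z1C2Z-4, Ackr4 was at -0.0519, Ccl21a at -0.11 and Cx3cl1 at -0.0402. With 1 sample left out, Ccl22 lay between -0.18 and 0.0444, Cx3cl1 between -0.0266 and 0.20, Cxcl9 between -1.33 and 0.89 and Cxcl10 between -0.91 and 0.23.

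The numbers 1, 2 and 5 occur in both groups, and deviations of same-numbered samples correlated at -0.101, -0.0623 and 0.323. Of 6 samples 2, control-5 and Z1C2Z-5, correlated best with their own number. So few correlations cannot show whether same-numbered samples share a mouse or a batch. A fit with a block for the number takes its group difference from numbers 1, 2 and 5 alone, since control-3 and Z1C2Z-4 have no partner. Its values for Cxcl9 and Cxcl10 therefore do without control-3, and cannot be read as an effect of pairing. With the replicate block, 3 members were lower (Ackr3, Ccl6 and Ccl9) and 0 higher, with and without the fold threshold (edgeR, 6.67% of 45 against 3.66% of all genes; 12 at an unadjusted p under 0.05, 26.7% against 16.8%), Ackr4 was at -0.0447, Cxcl10 at 0.0072 and Cxcl9 at 0.56.

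Members with few counts (Ccl1, Xcl1, Xcr1 and Ccr4 among them) carry counting error that the depth sets.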
